A study of Rattus norvegicus with 58 samples.

Results

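The liver of rats given the highest dose of 4-methylcyclohexanemethanol (MCHM), 500 mg/kg, was compared with the liver of control rats given 0 mg/kg. The 4 arrays titled liver at 500 mg/kg and the 5 arrays titled liver at 0 mg/kg, 9 of the 58 arrays in the series, were taken by those titles and described across all genes. Of 14217 genes named by a single symbol on the array, 11264 passed a filter on low values in liver and were tested. All rats were male, of the Harlan Sprague-Dawley stock, and were dosed by gavage for 5 days; the labels give no age and do not say what vehicle the controls received. Doses of 0.1, 1, 10, 100 and 300 mg/kg, with 4 liver arrays each, and kidneys of every dose complete the series. By their labels, arrays within a group are biological replicates.

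MCHM is an alicyclic alcohol used to wash coal. Hepatocytes, the main cells of the liver, make fatty acids and cholesterol, break down amino acids, clear foreign compounds with cytochromes P450, and secrete most plasma proteins. They share the organ with Kupffer cells, which are resident macrophages, and with lymphocytes, endothelial cells and stellate cells. Whole tissue was assayed, so fewer cells of a type and less RNA per cell cannot be told apart.

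The values are log2 RMA values, where RMA condenses all probes of a probe set into 1 level per array. The medians of the 9 arrays lay between 5.27 and 5.31, and each array correlated with the mean of the rest of its group at 0.993 to 0.996. Albumin (Alb), a defining hepatocyte product, was at 14.81 to 14.84 on the 500 mg/kg arrays and at 14.80 to 14.85 on the control arrays. Transthyretin (Ttr), another one, was at 14.11 to 14.20 on the 500 mg/kg arrays and at 14.16 to 14.27 on the control arrays. No array stood apart from its group in these measures.

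After 5 days at 500 mg/kg, most transcripts of fatty acid and sterol synthesis lay higher than in control liver, and single genes that rose included 2 Cyp3a cytochromes, the aminotransferases Gpt and Tat, and the peroxisomal proteins Uox, Pex14 and Ehhadh. Most transcripts of coagulation, complement, class II antigen presentation and mitosis lay lower, and single genes that fell included the corticosteroid carrier Serpina6 and the caveolar genes Cav2 and Cavin2. In limma's moderated test, adjusted over all genes by Benjamini-Hochberg, 108 of 11264 genes passed an adjusted p of 0.05, which is 0.959% of those tested. Of these calls 55 were higher (0.488%) and 53 lower (0.471%), and 34 differed by at least 1.5-fold. The called differences ran from 0.11 to 1.72 in size on the log2 scale, with a median size of 0.39. The median over all genes was 0.01, and 51.8% of genes lay above 0. The arrays of the groups did not overlap for 630 genes, or 5.59%.

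**Figure D1:**
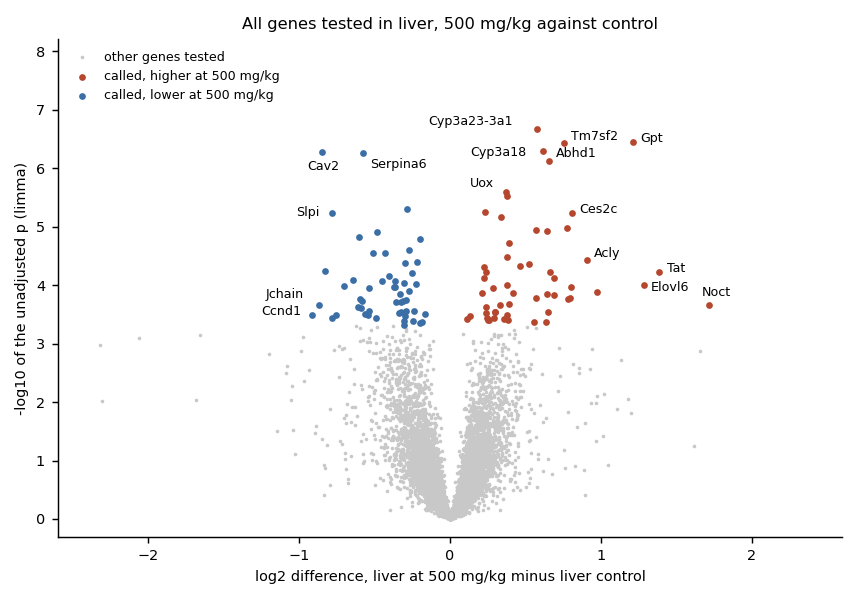
Every gene tested in liver, with the log2 difference of 500 mg/kg minus control on the x axis and -log10 of the unadjusted p on the y axis. Red points are the 55 genes called higher and blue points the 53 called lower; Noct has the highest called difference, at 1.72, and Ccnd1 the lowest, at -0.91.

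The number of calls depended on single arrays. Without the first 500 mg/kg array 42 genes passed, 30 higher and 12 lower. Without the third 500 mg/kg array 55 passed, 20 higher and 35 lower, and without the fourth 71 passed. Leaving out the second, the fourth or the fifth control array gave 66, 62 and 43 calls in that order. Of the 108 genes, 22 kept their call in each of the 9 fits that left out 1 array, and 16 did so in each of 20 alternative fits. These were Cyp3a23-3a1, Cyp3a18, Ces2c, Tm7sf2, Gpt, Ehhadh, Uox, Pex14, Abhd1, Hes6 and Fbxo6, which were higher, and Serpina6, Cpb2, Cav2, Erlec1 and Slpi, which were lower. Cpb2 and Fbxo6 were singled out after their values were seen.

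The genes with the firmest rises included cytochromes P450 that clear foreign compounds. Cyp3a23-3a1, a drug-oxidising cytochrome induced through the nuclear receptor PXR, was at 13.17, 13.002, 13.05 and 13.11 on the 500 mg/kg arrays, against 12.40, 12.65, 12.65, 12.43 and 12.39 on the control arrays. Every dosed array lay above every control array, and the difference was 0.58 (SE 0.08, adjusted p = 0.00105 in limma). Cyp3a18, a male-biased member of the same family, was at 12.80, 12.67, 12.74 and 12.72 on the 500 mg/kg arrays, against 11.76, 12.36, 12.30, 12.13 and 12.04 on the control arrays. Its groups did not overlap either, and the dosed arrays varied less (SD 0.055, n = 4) than the controls (SD 0.24, n = 5). The difference was 0.61 (SE 0.09, adjusted p = 0.00105 in limma).

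The promoters of this pair are shown because both genes rose by a similar amount and lie on the same chromosome. They are from RefSeq, build GRCr8, and run from 250 bases before to 50 bases after the gene's start, 5′ to 3′ on the gene's strand. The Cyp3a23-3a1 window is chr12:14398754-14399053 on the minus strand, and the Cyp3a18 window is chr12:13994062-13994361 on the plus strand. The promoter of Tm7sf2, the sterol reductase described further on, is chr1:212789492-212789791 on the minus strand. Capitals mark matches to the searched motifs.
Cyp3a23-3a1: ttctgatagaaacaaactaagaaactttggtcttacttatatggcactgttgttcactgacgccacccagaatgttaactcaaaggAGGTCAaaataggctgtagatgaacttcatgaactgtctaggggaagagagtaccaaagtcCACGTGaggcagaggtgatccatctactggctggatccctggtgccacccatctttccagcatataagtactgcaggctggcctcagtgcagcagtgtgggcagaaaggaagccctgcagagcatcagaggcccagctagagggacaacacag
Cyp3a18: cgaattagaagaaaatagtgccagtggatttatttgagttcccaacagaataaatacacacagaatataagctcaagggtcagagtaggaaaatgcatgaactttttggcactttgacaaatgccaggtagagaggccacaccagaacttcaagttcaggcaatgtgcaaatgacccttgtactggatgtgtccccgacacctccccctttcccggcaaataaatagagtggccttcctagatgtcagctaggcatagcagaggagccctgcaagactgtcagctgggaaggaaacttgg
Tm7sf2: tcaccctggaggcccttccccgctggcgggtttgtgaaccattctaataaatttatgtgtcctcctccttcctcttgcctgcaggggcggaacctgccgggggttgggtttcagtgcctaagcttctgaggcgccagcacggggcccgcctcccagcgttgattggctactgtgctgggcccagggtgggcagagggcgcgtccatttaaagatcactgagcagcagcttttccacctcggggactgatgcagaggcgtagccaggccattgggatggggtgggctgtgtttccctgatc

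Each window was searched on both strands for the E-box CACGTG, the sterol element TCACNCCAC, the antioxidant core TGACNNNGC and the nuclear receptor site AGGTCA, where N is any base. Of all 33469 promoters of this length, 6.42% held the E-box, 1.12% the sterol element, 12.1% the antioxidant core and 16.2% the nuclear receptor site. Of the 8 genes called in the lists of cholesterol synthesis, fatty acid synthesis, and targets of the receptors CAR and PXR, 6 matched a promoter. The Cyp3a23-3a1 window held 1 nuclear receptor site and 1 E-box, at -164 to -159 and -103 to -98 from the gene's start, and these do not overlap. The windows of Cyp3a18, Tm7sf2, Ebp, Acly and Ces2c held none of the 4 motifs. Only the exact letters of each motif were searched, so variant forms of a site were not looked for in any window.

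Ces2c, a carboxylesterase that cleaves ester drugs, was at 8.26, 8.54, 8.16 and 7.99 on the 500 mg/kg arrays, against 7.48, 7.74, 7.42, 7.24 and 7.28 on the control arrays. All dosed arrays were above all controls, and the difference was 0.81 (SE 0.14, adjusted p = 0.00515 in limma). Of 22 measured targets of CAR and PXR these 3 rose, 19 lay above 0 and the median was 0.10. All 3 calls held in each of the 9 fits that left out 1 array. Cyp2d4, outside that list, rose by 0.38 (SE 0.09, adjusted p = 0.0409 in limma) and kept its call in 1 of the 9 fits. Its second probe set differed by -0.32, and the mean over both by 0.03 (adjusted p = 0.965). Of 7 measured genes of the aryl hydrocarbon receptor pathway 0 passed limma's test, and Cyp1a1, its classic target, differed by 0.38 (adjusted p = 0.404).

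Conjugating enzymes changed at single genes. Gstk1, a glutathione S-transferase of mitochondria and peroxisomes, was at 11.39, 11.74, 11.44 and 11.49 on the 500 mg/kg arrays, against 11.26, 11.12, 11.13, 11.23 and 11.13 on the control arrays. The groups did not overlap, and it rose by 0.34 (SE 0.06, adjusted p = 0.00549 in limma). It was the 1 call among 19 glutathione S-transferases, of which 13 lay above 0. Acsm2, which activates medium-chain acids for conjugation with glycine, rose by 0.97 (SE 0.22, adjusted p = 0.0279 in limma), and was called in 4 of 9 fits that left out 1 array. Srxn1, which repairs oxidised peroxiredoxins, was the 1 call among 22 targets of the antioxidant factor Nrf2. It rose by 0.56 (SE 0.14, adjusted p = 0.0455 in limma), its groups overlapped, and it was called in 3 of those 9 fits.

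**Figure D2:**
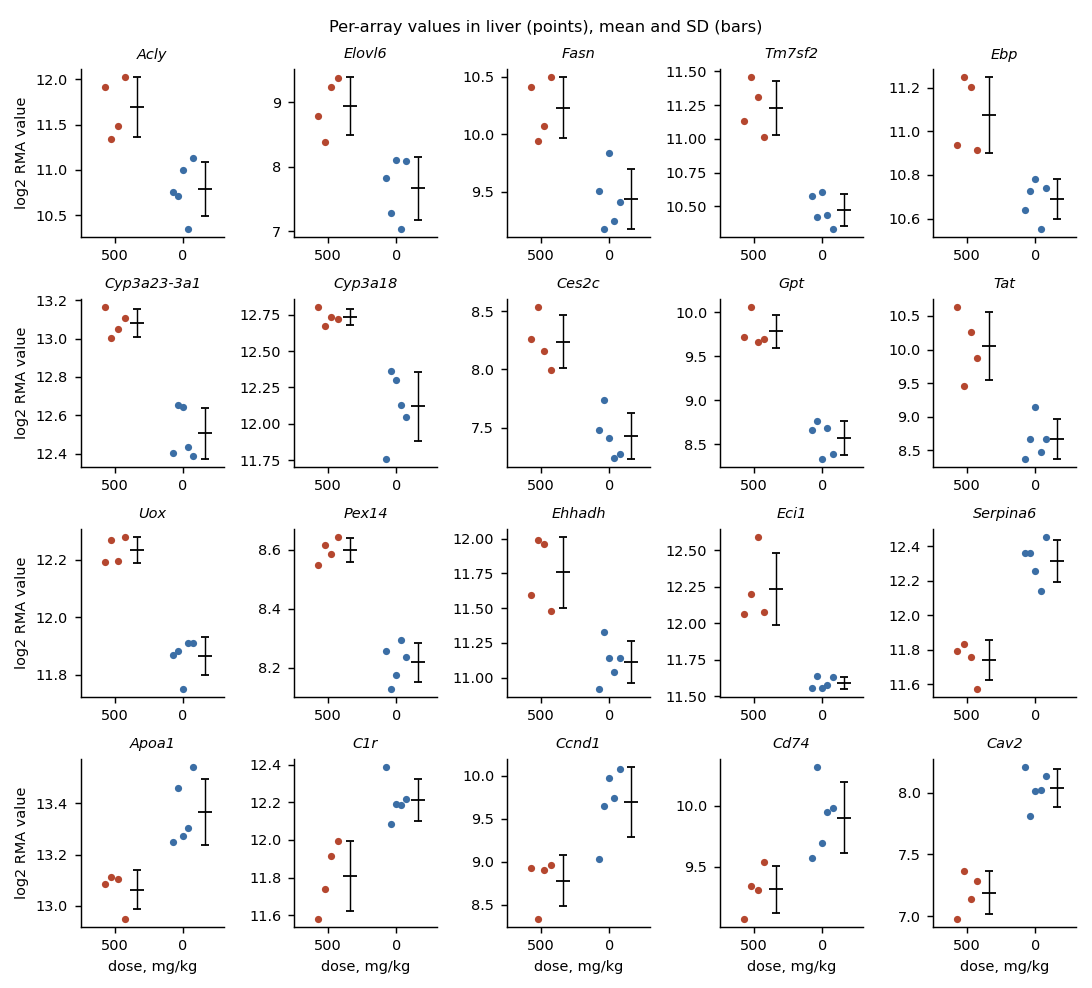
Log2 RMA values of 20 called genes on each of the 4 arrays at 500 mg/kg (red, left) and the 5 control arrays (blue, right), with group mean and SD as bars; each panel has its own axis, which does not start at 0. In all 20 panels the red and blue points do not overlap, with higher values at 500 mg/kg in 14 genes and lower values in Serpina6, Apoa1, C1r, Ccnd1, Cd74 and Cav2. The 20 genes were picked from the calls, and called genes with overlapping groups, such as Srxn1 and Nags, are not drawn. Over all genes tested, 5.59% had groups that did not overlap.

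Genes of de novo fatty acid synthesis, which builds fatty acids from citrate-derived acetyl-CoA, were higher as a group. Acly, which cleaves citrate to acetyl-CoA, was at 11.91, 11.34, 11.49 and 12.03 on the 500 mg/kg arrays, against 10.76, 10.71, 10.996, 10.34 and 11.13 on the control arrays. The lowest dosed array lay above the highest control, and the difference was 0.90 (SE 0.18, adjusted p = 0.0165 in limma). Elovl6, which elongates the products of the synthase, was at 8.78, 8.39, 9.24 and 9.37 on the 500 mg/kg arrays, against 7.82, 7.27, 8.10, 7.03 and 8.09 on the control arrays. Its groups did not overlap, and it rose by 1.28 (SE 0.28, adjusted p = 0.0245 in limma), with 1.62 at its second probe set. Fatty acid synthase (Fasn) was at 10.41, 9.94, 10.07 and 10.50 on the 500 mg/kg arrays, against 9.50, 9.18, 9.84, 9.24 and 9.41 on the control arrays. It rose by 0.80 (SE 0.18, adjusted p = 0.0308 in limma) with no overlap.

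Of 16 measured genes of fatty acid synthesis these 3 rose, 0 fell and 15 lay above 0, with a list median of 0.38. The exception was the desaturase Scd2, named after its value was seen, which differed by -0.60 (SE 0.15, adjusted p = 0.0533 in limma) with no overlap between groups. The list's median relative to the control mean was 0.67, 0.29, 0.40 and 0.52 on the 4 dosed arrays in order, and -0.07 to 0.14 on the control arrays. Without the first or the fourth 500 mg/kg array 0 of the 16 passed higher, without the third 1 did, and without the second 4 did. Leaving out the second or the fourth control array left 1 of the 16 higher. Acly was called in 7, Elovl6 in 4 and Fasn in 3 of the 9 fits that left out 1 array. The median stayed between 0.30 and 0.58 over those fits.

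Cholesterol synthesis genes lay higher throughout the list. Tm7sf2, a reductase of the sterol ring, was at 11.13, 11.46, 11.31 and 11.01 on the 500 mg/kg arrays, against 10.58, 10.42, 10.61, 10.44 and 10.33 on the control arrays. The groups were far apart relative to their spread, with a difference of 0.75 (SE 0.11, adjusted p = 0.00105 in limma). Ebp, an isomerase of the same pathway, was at 10.94, 11.25, 11.20 and 10.91 on the 500 mg/kg arrays, against 10.64, 10.72, 10.78, 10.55 and 10.74 on the control arrays. It rose by 0.39 (SE 0.09, adjusted p = 0.0343 in limma) without overlap, and was called in 3 of the 9 fits that left out 1 array.

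All 18 measured genes of cholesterol synthesis lay above 0, with a median of 0.31, and the 2 named above were the calls. At 0.1, 1, 10, 100 and 300 mg/kg the list median relative to control was 0.09, 0.22, -0.05, 0.16 and 0.21. Against the mean of the 0.1 to 100 mg/kg groups, the list median at 500 mg/kg was 0.15. Dhcr7, the last enzyme of the pathway, differed by 0.45 (SE 0.13, adjusted p = 0.0930 in limma). The third dosed array was the highest, with a list median of 0.63, against 0.23, 0.11 and 0.22 on the other dosed arrays and -0.23 to 0.14 on the controls. Without it the median over the list was 0.17. Of 15 genes of sterol sensing and uptake 0 passed limma's test and 4 lay above 0. Insig1, which holds back sterol-responsive transcription factors, differed by 0.94 (SE 0.26, adjusted p = 0.0792 in limma), and its groups overlapped.

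Amino acid breakdown was marked by 2 aminotransferases. Gpt, alanine aminotransferase, was at 9.72, 10.06, 9.66 and 9.69 on the 500 mg/kg arrays, against 8.66, 8.77, 8.33, 8.68 and 8.39 on the control arrays. The gap between the groups exceeded the range within either, and the difference was 1.22 (SE 0.18, adjusted p = 0.00105 in limma). Tat, tyrosine aminotransferase, was at 10.64, 9.45, 10.26 and 9.87 on the 500 mg/kg arrays, against 8.38, 8.67, 9.15, 8.47 and 8.66 on the control arrays. It rose by 1.39 (SE 0.29, adjusted p = 0.0191 in limma) without overlap.

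Of 20 genes of aminotransfer and tyrosine breakdown these 2 rose and 14 lay above 0. Without the first 500 mg/kg array Tat differed by 1.19 (adjusted p = 0.0839 in limma), and without the third by 1.32 (adjusted p = 0.0640 in limma). Tat was also the 1 call among 22 glucocorticoid-responsive genes, of which 12 lay above 0. Nags, which makes the activator of the first urea cycle enzyme, rose by 0.30 (SE 0.07, adjusted p = 0.0399 in limma), with overlapping groups and a call in 2 of 9 fits that left out 1 array. It was the 1 call among 10 urea cycle genes. In a list of 35 other genes of amino acid breakdown 27 lay above 0 and 0 passed, with Prodh, of proline breakdown, at 0.57 (SE 0.14, adjusted p = 0.0542 in limma), against -0.05 at its second probe set and 0.26 for the mean of both.

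Single genes of the peroxisome rose, while a mixed list of targets of the receptor PPAR alpha and peroxisomal oxidation genes had its median near 0. Uox, the urate oxidase of the peroxisome core, was at 12.19, 12.27, 12.20 and 12.28 on the 500 mg/kg arrays, against 11.87, 11.88, 11.75, 11.91 and 11.91 on the control arrays. The groups did not overlap, and it rose by 0.37 (SE 0.06, adjusted p = 0.00361 in limma). Pex14, part of the docking complex that imports peroxisomal proteins, was at 8.55, 8.62, 8.59 and 8.64 on the 500 mg/kg arrays, against 8.26, 8.13, 8.18, 8.29 and 8.24 on the control arrays. It rose by 0.38 (SE 0.06, adjusted p = 0.00370 in limma), again with no overlap. Ehhadh, a bifunctional enzyme of peroxisomal fatty acid oxidation, was at 11.60, 11.99, 11.96 and 11.48 on the 500 mg/kg arrays, against 10.92, 11.33, 11.14, 11.04 and 11.14 on the control arrays. It rose by 0.64 (SE 0.12, adjusted p = 0.00787 in limma), and its lowest dosed array lay above its highest control.

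Ehhadh belongs to a list of 25 targets of the receptor PPAR alpha and peroxisomal oxidation genes, of which 3 rose, 13 lay above 0 and the median was 0.03. The other 2 were Cyp4a1, which hydroxylates fatty acids, and Eci1, an enoyl-CoA isomerase. Cyp4a1 rose by 0.69 (SE 0.15, adjusted p = 0.0217 in limma) and Eci1 by 0.64 (SE 0.15, adjusted p = 0.0281 in limma). On the dosed arrays the list median was -0.10, 0.04, 0.28 and -0.20, so the arrays lay on both sides of the control mean. Without the third 500 mg/kg array Eci1 differed by 0.52 (adjusted p = 0.123 in limma), and Ehhadh was the 1 gene of the list that passed higher. Cyp4a1 was called in 5 of 9 fits that left out 1 array, and Bdh2, described next, in 6. Of 24 genes of mitochondrial fatty acid oxidation and ketone bodies 1 rose and 14 lay above 0. That gene, Bdh2, a short-chain dehydrogenase, rose by 0.80 (SE 0.18, adjusted p = 0.0245 in limma), while Cpt1a, which admits fatty acids to mitochondria, differed by -0.54 (SE 0.18, adjusted p = 0.136).

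Subunits of oxidative phosphorylation lay slightly higher as a group, with 45 of 46 above 0 and a median of 0.08. Ndufs7, a subunit of complex I, and Atp5f1b, a catalytic subunit of ATP synthase, were the 2 calls. Ndufs7 rose by 0.24 (SE 0.06, adjusted p = 0.0358 in limma). Atp5f1b was at 12.96, 12.93, 12.93 and 12.91 on the 500 mg/kg arrays, against 12.82, 12.87, 12.79, 12.80 and 12.81 on the control arrays. Its groups did not overlap, and the rise of 0.11 (SE 0.03, adjusted p = 0.0435 in limma) was the smallest among the 108 calls. Without the third 500 mg/kg array 0 of the 46 passed, and the same held without the third, the fourth or the fifth control array. Ndufs7 was called in 4 and Atp5f1b in 1 of the 9 fits that left out 1 array. Of 30 proteasome subunits 29 lay above 0, with a median of 0.10, and 0 passed limma's test. Psmb5 had the smallest p, at 0.14 (SE 0.04, adjusted p = 0.105 in limma), with -0.03 at its second probe set. The proteasome list median overlapped between groups, at 0.03, 0.09, 0.21 and 0.16 on the dosed arrays and -0.04 to 0.09 on the control arrays. At 300 mg/kg the list median relative to control was 0.08.

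Antioxidant genes moved both ways. Of 25 peroxiredoxins, thioredoxins and glutathione peroxidases with their partners, 4 rose, 1 fell and 15 lay above 0. The rises, beside Srxn1, were Glrx5, a mitochondrial glutaredoxin, at 0.23 (SE 0.05, adjusted p = 0.0217 in limma), Prdx5 at 0.24 (SE 0.06, adjusted p = 0.0407) and the superoxide dismutase Sod1 at 0.13 (SE 0.03, adjusted p = 0.0409). Prdx4, the peroxiredoxin of the endoplasmic reticulum, fell by 0.25 (SE 0.05, adjusted p = 0.0194 in limma), with 11.73, 11.81, 11.84 and 11.69 on the 500 mg/kg arrays, against 12.04, 11.88, 12.02, 12.02 and 12.12 on the control arrays. Without the third 500 mg/kg array or the fifth control array 0 genes of the list passed higher. Over the 9 fits that left out 1 array, Glrx5 was called in 7, Prdx4 in 6, Prdx5 in 2 and Sod1 in 1. Erlec1, a lectin of glycoprotein degradation in the endoplasmic reticulum, fell by 0.29 (SE 0.05, adjusted p = 0.00515 in limma) with no overlap. It and Prdx4 were the 2 calls among 32 genes of folding and degradation in that compartment, of which 4 lay above 0, with a median of -0.10. At 0.1, 1, 10, 100 and 300 mg/kg this list's median relative to control was -0.05, -0.01, -0.11, -0.13 and -0.10. Against the mean of the 0.1 to 100 mg/kg groups, the list median at 500 mg/kg was -0.005. The array medians overlapped, at -0.19, -0.01, -0.12 and -0.16 on the dosed arrays and -0.06 to 0.07 on the control arrays.

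**Figure D3:**
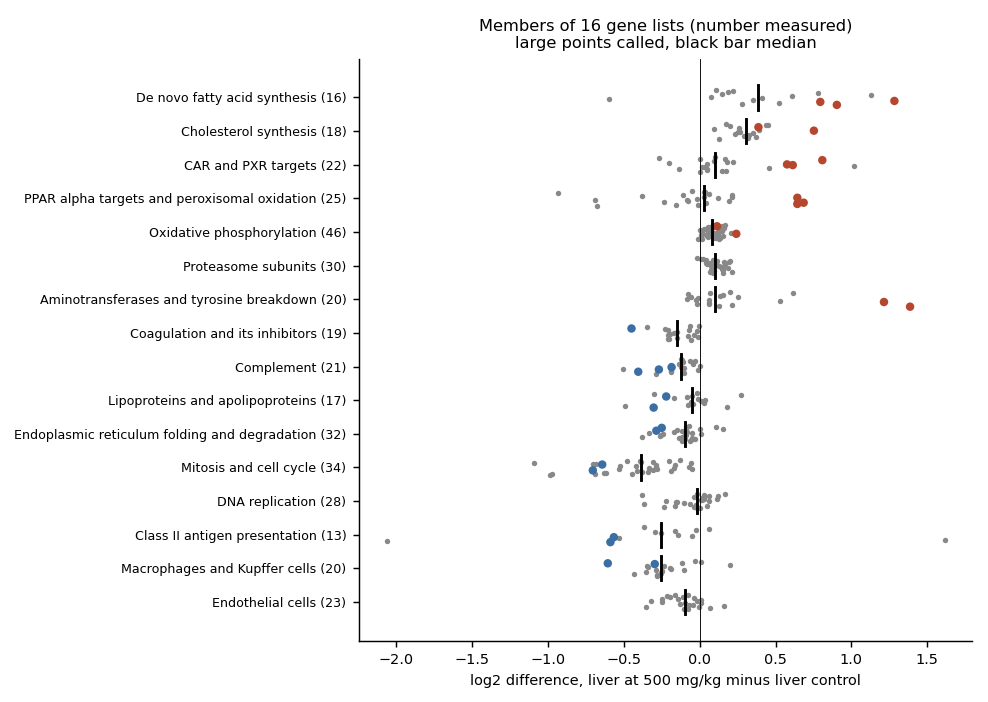
Log2 differences of 500 mg/kg minus control for the measured members of 16 gene lists, 1 point per gene, with called genes as large red (higher) or blue (lower) points and a black bar at each list's median. Cholesterol synthesis lies wholly above 0 and mitosis and coagulation wholly below 0, while DNA replication has its median at -0.02.

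Transcripts of several secreted plasma proteins fell. Serpina6, corticosteroid-binding globulin, which carries glucocorticoids in blood, was at 11.79, 11.84, 11.76 and 11.57 on the 500 mg/kg arrays, against 12.36, 12.36, 12.26, 12.14 and 12.45 on the control arrays. Every dosed array lay below every control, with a difference of -0.58 (SE 0.09, adjusted p = 0.00105 in limma). Over the 9 fits that left out 1 array it stayed between -0.62 and -0.52, with an adjusted p of at most 0.00782 in limma. Apoa1, the main protein of high-density lipoprotein, was at 13.08, 13.11, 13.11 and 12.95 on the 500 mg/kg arrays, against 13.25, 13.46, 13.27, 13.30 and 13.54 on the control arrays. It fell by 0.30 (SE 0.07, adjusted p = 0.0245 in limma) with no overlap.

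Lcat, which esterifies cholesterol on that lipoprotein, fell by 0.22 (SE 0.05, adjusted p = 0.0166 in limma). Apoa1 and Lcat were the 2 calls among 17 apolipoproteins and lipoprotein enzymes, of which 5 lay above 0. Without the first or the fourth 500 mg/kg array Apoa1 differed by -0.31 and -0.27 (adjusted p = 0.0582 and 0.0789 in limma), and without the fifth control array 0 of the 17 passed. Cpb2, a carboxypeptidase that slows clot breakdown, was at 11.95, 11.95, 12.02 and 11.95 on the 500 mg/kg arrays, against 12.18, 12.16, 12.12, 12.21 and 12.16 on the control arrays. It fell by 0.20 (SE 0.04, adjusted p = 0.00901 in limma), and its groups did not overlap.

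All 19 measured coagulation factors and inhibitors lay below 0, with a median of -0.15 and 1 call. That was Tfpi, the inhibitor of the tissue factor pathway, which fell by 0.45 (SE 0.10, adjusted p = 0.0232 in limma), while its second probe set differed by -0.13. Of 21 complement genes 20 lay below 0, with 3 calls and a median of -0.12. C1r, a protease of the classical pathway, was at 11.58, 11.74, 11.91 and 11.995 on the 500 mg/kg arrays, against 12.39, 12.08, 12.19, 12.18 and 12.22 on the control arrays. It fell by 0.40 (SE 0.09, adjusted p = 0.0217 in limma) without overlap. C5 and C8b, of the terminal pathway, fell by 0.27 (SE 0.06, adjusted p = 0.0264) and 0.19 (SE 0.05, adjusted p = 0.0464). Without the first 500 mg/kg array 0 of the 19 coagulation genes and 0 of the 21 complement genes passed, with list medians of -0.15 and -0.11. C1r was called in 7, Tfpi in 5, C5 in 4 and C8b in 1 of the 9 fits that left out 1 array. The coagulation list also had 0 calls without the fourth 500 mg/kg array and without the first or the fifth control array.

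Orm1, an acute phase glycoprotein, went the other way and rose by 0.65 (SE 0.16, adjusted p = 0.0399 in limma). It was at 12.50, 12.86, 12.57 and 12.80 on the 500 mg/kg arrays, against 12.39, 12.18, 11.77, 12.23 and 11.59 on the control arrays. The groups did not overlap, and it was called in 2 of 9 fits that left out 1 array. It was the 1 call among 28 acute phase proteins, of which 9 lay above 0. Ghr, the growth hormone receptor, fell by 0.30 (SE 0.06, adjusted p = 0.0166 in limma) with no overlap, and its other probe set differed by -0.05. It was the 1 call among 21 genes of the growth hormone and IGF axis, of which 7 lay above 0, and Igf1 differed by -0.16 (SE 0.05, adjusted p = 0.124).

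Mitotic genes lay lower at 500 mg/kg than in control liver, and the control group was the highest of all dose groups. Of 34 measured genes of mitosis and the cell cycle 2 fell and 0 lay above 0, with a median of -0.39. At 0.1, 1, 10, 100 and 300 mg/kg the list median relative to control was -0.12, -0.10, -0.28, -0.26 and -0.23. Nusap1, a spindle protein, was at 5.49, 5.62, 5.99 and 5.84 on the 500 mg/kg arrays, against 6.32, 6.42, 6.29, 6.83 and 6.35 on the control arrays. It fell by 0.70 (SE 0.16, adjusted p = 0.0245 in limma) without overlap. Ube2t, a ubiquitin-conjugating enzyme of DNA crosslink repair, fell by 0.64 (SE 0.14, adjusted p = 0.0232 in limma), and Cdk1, the mitotic kinase, differed by -0.97 (SE 0.26, adjusted p = 0.0659). Ube2t was low on every array compared, below the array medians.

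On the dosed arrays the list median relative to the control mean was -0.44, -0.35, -0.36 and -0.46. The control arrays varied more, with medians of -0.09, -0.08, 0.08, 0.37 and -0.30. The 5 measured erythroid markers had medians of 0.06, -0.56, 0.03 and -0.15 on the dosed arrays and 0.01, -0.42, 0.10, 0.68 and -0.27 on the control arrays, so both lists were highest on the fourth control array. The part of erythroid cells in the mitotic differences was not tested. Without the fourth control array 0 of the 34 genes passed, with Nusap1 at -0.61 (adjusted p = 0.0680 in limma) and Ube2t at -0.57 (adjusted p = 0.0609). Over the 9 fits that left out 1 array, Nusap1 was called in 6 and Ube2t in 5. Of 28 genes of DNA replication 13 lay above 0, with a median of -0.02, and 0 passed. Cyclin D1 (Ccnd1), which drives entry into the cycle, was at 8.93, 8.34, 8.90 and 8.96 on the 500 mg/kg arrays, against 9.03, 9.65, 9.98, 9.74 and 10.08 on the control arrays. It fell by 0.91 (SE 0.22, adjusted p = 0.0409 in limma), with the highest dosed array just below the lowest control, and was called in 1 of 9 fits that left out 1 array. Its other probe sets differed by -0.79 and -0.63.

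Most genes of antigen presentation and of macrophages lay lower. Cd74, the invariant chain of class II molecules, was at 9.07, 9.34, 9.31 and 9.53 on the 500 mg/kg arrays, against 9.57, 10.32, 9.69, 9.95 and 9.98 on the control arrays. It fell by 0.59 (SE 0.14, adjusted p = 0.0374 in limma), the groups being separated by a narrow gap. RT1-Db1, a class II beta chain, fell by 0.57 (SE 0.14, adjusted p = 0.0407 in limma). Its other probe set differed by 0.26, and the mean over both by -0.15 (adjusted p = 0.793). Cd74 was called in 3 and RT1-Db1 in 2 of 9 fits that left out 1 array. Of 13 class II genes these 2 fell and 2 lay above 0, with a median of -0.26. Without the first or the third 500 mg/kg array 0 of the 13 passed, and the same held without the second, the fourth or the fifth control array.

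RT1-Ba, a class II alpha chain, had the most negative difference of the list, at -2.06 (SE 0.55, adjusted p = 0.0671 in limma). It was at 8.22, 8.34, 8.23 and 4.47 on the 500 mg/kg arrays, against 8.54, 10.21, 8.65, 9.72 and 9.77 on the control arrays, so the fourth dosed array alone was far below the rest. Its 3 other probe sets differed by 0.56, 0.11 and 0.02. RT1-Bb, the partner beta chain, named after its values were seen, differed by 1.61 (SE 0.81, adjusted p = 0.379). It was at 6.57, 6.97, 6.47 and 8.10 on the 500 mg/kg arrays, against 7.14, 3.95, 7.30, 4.35 and 4.32 on the control arrays, of which 2 were high and 3 low.

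Clec4a3, a lectin receptor of macrophages and dendritic cells, was at 6.09, 6.26, 6.30 and 6.39 on the 500 mg/kg arrays, against 6.59, 7.21, 6.73, 6.80 and 7.0 on the control arrays. It fell by 0.61 (SE 0.12, adjusted p = 0.00876 in limma) and kept its call in all 9 fits that left out 1 array. Laptm5, a lysosomal protein of blood cells, fell by 0.30 (SE 0.07, adjusted p = 0.0409 in limma). Laptm5 was called in 2 of those fits. These were the 2 calls among 20 markers of macrophages and Kupffer cells, of which 2 lay above 0, with a median of -0.26. The list's median was -0.46, -0.29, -0.26 and 0.02 on the dosed arrays, so the fourth did not share the shift. Without the fourth 500 mg/kg array 7 of the 20 fell, and without the first 1 did.

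Markers of lymphocytes, endothelial cells and stellate cells held 1 call in all. Of 18 markers of lymphocytes and NK cells 1 fell and 6 lay above 0. It was Jchain, the joining chain of secreted antibodies, at -0.87 (SE 0.20, adjusted p = 0.0348 in limma), with 0.10 at its second probe set. The chemokine Ccl5 fell by 0.60 (SE 0.14, adjusted p = 0.0311 in limma). Jchain and Ccl5 were each called in 3 of the 9 fits that left out 1 array. Of 23 endothelial markers 4 lay above 0 (median -0.10), and of 32 markers of stellate cells and fibroblasts 6 lay above 0 (median -0.17); 0 passed limma's test in either list. The summed level of the macrophage list was 13.04 to 13.47 on the 500 mg/kg arrays and 13.34 to 13.51 on the control arrays, on the log2 scale. For class II genes it was 12.14 to 12.43 on the 500 mg/kg arrays and 12.48 to 12.92 on the control arrays, and for lymphocytes 9.97 to 10.29 on the 500 mg/kg arrays and 10.19 to 10.38 on the control arrays. Endothelial markers summed to 12.43 to 12.59 on the 500 mg/kg arrays and 12.51 to 12.70 on the control arrays, and stellate cell markers to 12.74 to 12.92 on the 500 mg/kg arrays and 12.89 to 13.22 on the control arrays. The hepatocyte list summed to 17.69 to 17.71 on the 500 mg/kg arrays and 17.70 to 17.75 on the control arrays. The part of cell type shares in the differences of other genes was not tested.

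Caveolae, which are flask-shaped invaginations of the cell membrane, had 2 lower genes among 8. Of the 8 genes 3 lay above 0, with a median of -0.05. Against the mean of the 0.1 to 100 mg/kg groups the list median was 0.06. Cav2, a caveolin, was at 6.98, 7.37, 7.14 and 7.29 on the 500 mg/kg arrays, against 8.21, 7.81, 8.02, 8.03 and 8.13 on the control arrays. The groups lay well apart, with a difference of -0.85 (SE 0.13, adjusted p = 0.00105 in limma). Its other probe sets differed by -0.90, -0.66 and -0.34. Cavin2, a coat protein of caveolae, fell by 0.36 (SE 0.08, adjusted p = 0.0245 in limma). Cavin2 was called in 5 of 9 fits that left out 1 array. Slpi, a secreted inhibitor of leukocyte proteases, was at 8.47, 8.31, 8.44 and 8.86 on the 500 mg/kg arrays, against 9.15, 9.75, 9.05, 9.10 and 9.47 on the control arrays. It fell by 0.78 (SE 0.14, adjusted p = 0.00515 in limma) with no overlap.

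**Figure D4:**
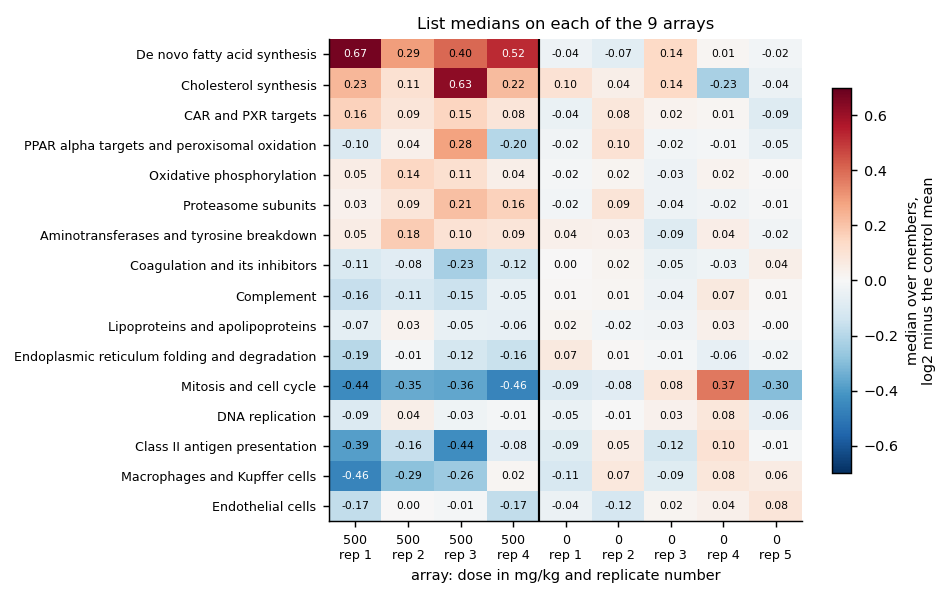
Median log2 value of 16 gene lists on each of the 9 arrays, each gene taken relative to its control mean, with the 4 arrays at 500 mg/kg left of the line and the 5 control arrays right of it. Fatty acid synthesis is highest on the first dosed array (0.67), cholesterol synthesis on the third (0.63), and the macrophage list is at 0.02 on the fourth, against -0.46 to -0.26 on the other dosed arrays.

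Further genes rose outside these groups. Hes6, a transcription factor of the Hes family, was at 10.63, 10.84, 11.04 and 10.98 on the 500 mg/kg arrays, against 10.26, 9.71, 10.24, 10.02 and 10.27 on the control arrays. It rose by 0.77 (SE 0.14, adjusted p = 0.00782 in limma) with no overlap. Abhd1, of the alpha/beta hydrolase family, rose by 0.65 (SE 0.10, adjusted p = 0.00122 in limma). Dbi, the acyl-CoA binding protein, rose by 0.23 (SE 0.04, adjusted p = 0.00515 in limma). Noct, a phosphatase with a daily rhythm, was at 6.12, 5.49, 6.08 and 6.23 on the 500 mg/kg arrays, against 3.47, 4.31, 4.79, 4.69 and 4.06 on the control arrays. Its groups did not overlap and its difference was the largest called, at 1.72 (SE 0.40, adjusted p = 0.0349 in limma), and it was called in 3 of 9 fits that left out 1 array. All control values of Noct were low, below the array medians of 5.27 to 5.31. Of the 16 arrays at 0.1, 1, 10 and 100 mg/kg, 4 lay at or above its lowest 500 mg/kg array.

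Some large differences did not pass. Trib3, a target of the stress factor ATF4, was at 10.70, 8.75, 10.15 and 9.34 on the 500 mg/kg arrays, against 7.93, 8.26, 8.51, 7.97 and 7.69 on the control arrays. Its difference was 1.66 (SE 0.46, adjusted p = 0.0803 in limma). Against the 16 arrays at 0.1, 1, 10 and 100 mg/kg it was 0.35 (adjusted p = 0.697), and 13 of these reached the lowest 500 mg/kg array. The control group had the lowest Trib3 mean, at 8.08, against 8.77 to 9.75 at 0.1 to 300 mg/kg and 9.73 at 500 mg/kg. Of 26 genes of the integrated stress response 0 passed, although 23 lay above 0. The list median relative to control was 0.16 at 500 mg/kg and 0.24 at 300 mg/kg. Without the second 500 mg/kg array 2 of the 26 passed. Egr1, an immediate early transcription factor, was at 7.74, 7.50, 6.17 and 6.68 on the 500 mg/kg arrays, against 9.17, 10.93, 8.75, 8.98 and 8.87 on the control arrays. Its groups did not overlap, and the difference was -2.32 (SE 0.63, adjusted p = 0.0759 in limma).

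The 500 mg/kg arrays were also set against the 16 arrays at 0.1, 1, 10 and 100 mg/kg, which the control comparison does not use. In that contrast 428 genes passed limma's test, 3.8% of those tested, 190 higher and 238 lower; without the first, the second or the third 500 mg/kg array 221, 272 and 213 passed. Serpina6 differed by -0.67 (adjusted p = 1.18e-05 in limma), Cyp3a23-3a1 by 0.58 (adjusted p = 3.31e-05), Uox by 0.37 (adjusted p = 0.000244) and Eci1 by 0.82 (adjusted p = 0.000285). None of the 16 lower-dose arrays reached the range of the 500 mg/kg arrays for these 4 genes, or for Gpt, Apoa1, Ccnd1 and Cav2. Of 46 subunits of oxidative phosphorylation 15 passed higher there, as did 5 of 16 genes of fatty acid synthesis and 4 of 18 of cholesterol synthesis. In the fatty acid synthesis list 1 gene passed lower, Scd2, at -0.54 (adjusted p = 0.0164 in limma). Of 24 genes of mitochondrial fatty acid oxidation and ketone bodies 1 passed higher and 3 lower. Among the lower ones was Cpt1a, at -0.94 (adjusted p = 0.000508 in limma). In the complement and coagulation lists 5 genes each passed lower. Both contrasts share the 500 mg/kg arrays.

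Some genes called against control were not called against the lower doses, and those given here are not all of them. Ube2t differed by -0.19 (adjusted p = 0.411 in limma), Nusap1 by -0.38 (adjusted p = 0.107), Tat by 0.67 (adjusted p = 0.128) and Noct by 1.10 (adjusted p = 0.0657). Cavin2, Srxn1, Cyp2d4 and Bdh2 differed by -0.20, 0.35, 0.24 and 0.51 (adjusted p = 0.0916, 0.0897, 0.0816 and 0.0503 in limma). For Tat the group means were 8.67, 9.40, 9.14, 9.52, 9.48, 9.31 and 10.05 at 0, 0.1, 1, 10, 100, 300 and 500 mg/kg. The control group had the lowest mean there, and 7 of the 16 lower-dose arrays lay at or above the lowest 500 mg/kg array. For Ube2t the means were 4.82, 4.28, 4.50, 4.16, 4.55, 4.34 and 4.18 at the same doses, with control the highest.

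**Figure D5:**
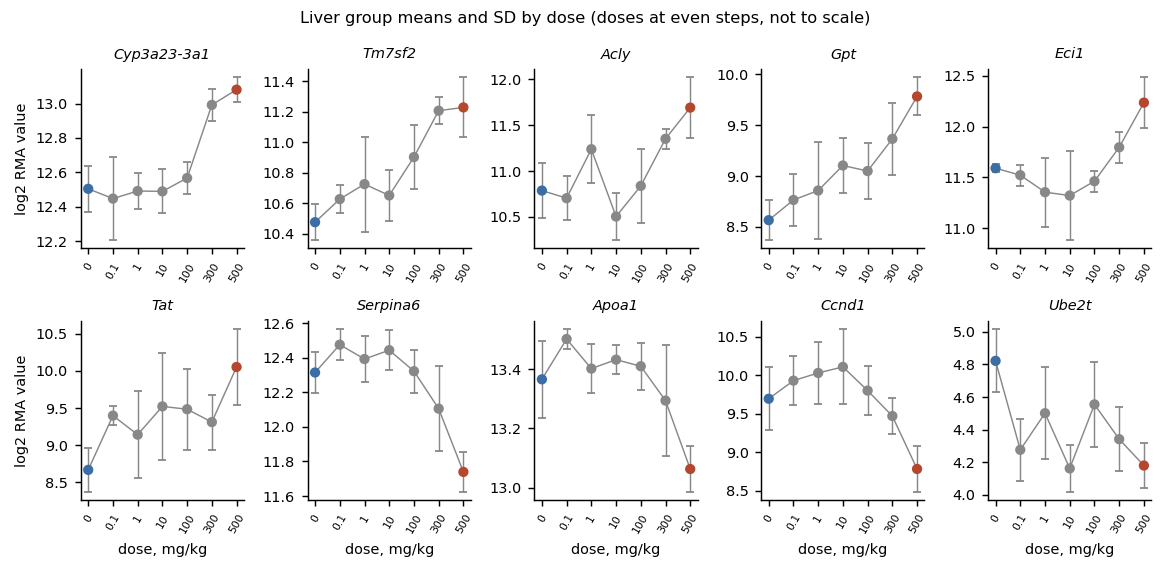
Group means with SD of 10 genes in liver from 0 to 500 mg/kg (5 control arrays, 4 at each dose), on the log2 RMA scale with doses at even steps; each panel has its own axis. Cyp3a23-3a1, Eci1, Serpina6, Apoa1 and Ccnd1 have their most distant value at 500 mg/kg, while the control group has the lowest mean for Tat and the highest for Ube2t.

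Against 300 mg/kg, 0 genes passed limma's test (0%), with 647 at an unadjusted p under 0.05, so no gene was shown to differ between these doses. In the 300 mg/kg group Tm7sf2 differed from control by 0.73 and Cyp3a23-3a1 by 0.49 (adjusted p = 0.00694 and 0.0138 in limma). The same control arrays give the values of 0.75 and 0.58 at 500 mg/kg. Serpina6 differed by -0.21, Ehhadh by 0.24 and Cyp4a1 by 0.05 at 300 mg/kg, with adjusted p of at least 0.557.

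In kidney, 3 genes passed limma's test at 500 mg/kg against kidney control (0.0268% of 11194), all higher, and 11 did without the second kidney array and 6 without the fourth. The difference between the liver effect and the kidney effect passed for 14 genes (0.124%), 12 of them with the more positive effect in liver. Acly differed from control by 0.90 in liver and by -0.17 in kidney, and the difference between organs was 1.08 (adjusted p = 0.0219 in limma). Hes6 differed by 0.77 in liver and by -0.08 in kidney (difference 0.86, adjusted p = 0.0219). Tfpi differed by -0.45 in liver and by 0.19 in kidney (difference -0.65, adjusted p = 0.0099). The autophagy receptor Sqstm1 and the Arf regulator Asap2, named after their values were seen, differed between organs by 0.53 and 0.70 (adjusted p = 0.00676 for both in limma). The Sqstm1 value rests on 1 probe set, which differed by 0.39 in liver, while the 3 others differed by 0.11, 0.06 and 0.21. The mean over the 4 was 0.19 and did not pass in liver (adjusted p = 0.0926). For Eci1 and Cyp4a1 the kidney differences were 0.51 and 0.54, and their differences between organs, of 0.14 for both, did not pass (adjusted p = 0.934 and 0.911). Leaving out 1 array at 500 mg/kg in either organ gave 4 to 33 genes for the difference between organs, with 4 without the fourth liver array and 33 without the fourth kidney array. It gave 27 and 8 without the second and the third liver array, and 6, 26 and 5 without the first, the second and the third kidney array.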

How the data were processed

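Liver and kidney RNA of the rats was hybridised to Affymetrix rat genome arrays, 1 colour and 1 array per sample. The deposited values are log2 RMA values, per the submitters' processing notes. Joint or separate normalization of the organs was not given in the sources used here, and it bears on the liver-minus-kidney effect. The precision is limited by how many arrays each group has.

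Of 31099 probe sets, 57 controls were left out, 20826 carried 1 gene symbol, 436 several and 9780 none. Symbols came from the platform annotation, and 20758 of these probe sets matched a RefSeq gene ID (GRCr8), with 0 renamed. Probe sets above the array's 40th percentile on at least 4 liver arrays were kept, and the brightest probe set stood for each gene, giving 11264 genes in liver and 11194 in kidney. Groups were taken from the sample titles. Differences were fitted with limma 3.58.1 in R 4.3.3 over all liver groups, with an intensity trend, and p-values were adjusted over all genes by Benjamini-Hochberg, with calls at 0.05. The liver-minus-kidney effect was fitted over both organs. P-values rest on arrays labelled biological replicates. The fits were tested on simulated data.

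Genes named were those called with at least a 1.5-fold difference, the 15 called with the smallest p, all called members of a list, and the 3 members of each list with the smallest p, from which the text gives a selection. Scd2, Cpb2, Asap2, Sqstm1, Fbxo6, Atp1b1 and RT1-Bb were named after their values were seen. The members and gene lists were chosen with earlier results of these data known. Promoter sequences are from RefSeq, build GRCr8. The alternatives were other filters, probe set rules, variance models, array weights, normalizations, a replicate block and leaving out each array.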

Additional observations from a re-analysis of the deposited data

Results flagged for a closer look

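Within 208 groups of 4 or 5 arrays, 14 held an array beyond Dixon's critical value for a single outlier, or 6.7%, where chance gives about 1 in 20. At 500 mg/kg these were Gpt on the second array (10.06), Arg1 on the fourth (13.19), Cpb2 on the third (12.02), Igf1 on the first (13.22), Ccnd1 on the second (8.34), RT1-Ba on the fourth (4.47) and Limk2 on the second (7.59). In control liver they were Dhcr7 on the fifth array (10.48), Uox on the third (11.75), C8b on the first (12.05), Nusap1 on the fourth (6.83), Spmip11 on the second (5.93), Limk2 on the first (7.17) and Egr1 on the second (10.93).

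For 9 of the named genes the effect of 500 mg/kg differed between liver and kidney in limma's test of the difference itself. The liver effect minus the kidney effect was 1.08 for Acly, 1.03 for Acsm2, 1.55 for Tat, -0.65 for Tfpi, 0.86 for Hes6, 0.70 for Asap2, 0.53 for Sqstm1, 0.47 for Fbxo6 and 0.55 for Atp1b1. Tat passed the filter on low values in liver but not in kidney. Its value therefore sets a liver change against low kidney levels. The adjusted p was 0.0437 for Acsm2, 0.0347 for Tat, Fbxo6 and Atp1b1, and at most 0.0219 for the rest.

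Among probe sets outside the named genes, 22 of 4338 with no symbol passed limma's test, 6 higher and 16 lower at 500 mg/kg. Of 355 probe sets with several symbols 2 passed.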

How the results depend on the processing

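The 108 calls in liver at 500 mg/kg against control became 65 with only the 9 arrays compared in the fit, 58 without the intensity trend, 263 with array weights, and 34 with a 1.5-fold minimum. Without a filter 88 passed, and with the 60th percentile filter 119. Leaving out 1 array of either group gave 42 to 110 calls. The balance of 55 higher and 53 lower calls turned to 116 and 147 with array weights and to 49 and 62 with all probe sets, and without the third or the fourth 500 mg/kg array to 20 and 35, and 31 and 40. Arrays with the same replicate number did not deviate together (correlations of -0.185 to 0.0565 over 4 pairs), and the fit with the replicate number as a block gave 33 calls. Against the lower doses, leaving out 1 of the 4 arrays at 500 mg/kg gave 213 to 308 calls, against 428; the lower-dose arrays were not left out in turn. Adding the control group to the lower doses, an alternative chosen after seeing the data, gave 429. In kidney, array weights gave 69 calls and leaving out 1 array at 500 mg/kg 2 to 11, against 3. For the difference between organs, array weights gave 86 calls, 39 with the more positive effect in liver and 47 with the more negative. Leaving out 1 array at 500 mg/kg gave 4 to 33 calls for that difference, against 14 (12 and 2). Without the fourth kidney array the split was 16 and 17. The cause of these shifts was not tested. The mean over probe sets ended the calls of Cyp2d4, Tfpi, Ghr, Ccnd1, RT1-Db1, Laptm5, Jchain and Sqstm1. No alternative turned the sign of a named gene's difference from control. The fit of all probe sets was read at each gene's brightest probe set, so it could not show a turn at another. Taken singly, other probe sets of Cyp2d4, Jchain, Prodh, Psmb5, RT1-Ba, RT1-Bb and RT1-Db1 had the opposite sign. The number of arrays limits which small differences can be called.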

Other observations

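Lists of the translation machinery lay on different sides of 0 and held 0 calls in limma. Of 36 measured cytosolic ribosomal proteins 2 lay above 0, with a median difference of -0.07, and of 19 aminoacyl-tRNA synthetases 15 lay above 0, with a median of 0.15. In both lists the array medians overlapped between groups. The ribosomal median was -0.10 to -0.05 on the dosed arrays and -0.06 to 0.07 on the controls. For the synthetases these were -0.10 to 0.31 and -0.10 to 0.21. Relative to control, the ribosomal median was also -0.06 and -0.07 at 0.1 and 1 mg/kg. That of the synthetases was 0.11 and 0.18 at 10 and 300 mg/kg. In glycolysis and glucose uptake 16 of 19 lay above 0, with a median of 0.11, and 3 passed higher against the lower doses. Over all 11264 genes, 1566 had an unadjusted p under 0.05.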
